A study of Mus musculus with 12 samples.

Results

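The 10 genes that mark dividing cells, or that hold cells back from dividing, were followed in RNA sequencing counts from adult mouse cardiomyocytes. The members were taken by gene symbol and are Mki67, Top2a, Ccnb1, Ccna2, Cdk1, Birc5, Aurkb and Bub1, called the 8 mitotic genes here, together with Ccnd1 and Cdkn1a. All 10 were found among the 21493 genes of the tables, and all 10 passed the filter on low counts that left 13158 genes to test. The libraries are poly-A RNA from heart cells of 3-month-old mice that were wild type (Des+/+) or null (Des-/-) for desmin and that had not swum (non-swim) or had undergone swimming exercise (swim), with 3 libraries in each of the 4 groups. Desmin is the intermediate filament protein of muscle, and swimming served as a mild stress. The cells were obtained by perfusing the heart with trypsin and collagenase and were harvested directly afterwards, with no sort for cardiomyocytes named for these samples. By the study's methods the cells of more than 1 mouse were pooled for a library, and replicates are therefore pools. The methods use the same genotype names for lines on a shared inbred background that also carry an αMHC-GFP reporter in both genotypes, which the labels of these libraries do not mention.

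Cell division is driven by cyclins, whose levels rise and fall through the cycle, and by the kinases they switch on. Most mitotic genes are silent in resting cells and are transcribed together late in the cycle, under the control of factors that include the DREAM complex, B-MYB and FOXM1. Adult mammalian cardiomyocytes rarely divide, whereas fibroblasts, endothelial cells and macrophages of the heart can. Cyclin D1, from Ccnd1, acts earlier, when a cell leaves the resting state, and p21, from Cdkn1a, is an inhibitor of cyclin-dependent kinases that is best known as a target of p53 and also responds to stress.

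RefSeq windows of 250 bases upstream of the start (GRCm38.p6) were matched by symbol for 7 of the 10 members, 6 of them mitotic, and Ccna2, Aurkb and Ccnd1 had no entry. Both strands were searched for TTTGAA, the core of the cell cycle homology region, for CCAAT, the CCAAT box, and for the E2F-type motifs TTTCCCGC and TTTGGCGC. In the windows printed here the capitals mark TTTGAA and CCAAT on either strand (TTCAAA and ATTGG on the other one), and in Cdkn1a they mark ACATGT, a letter group that was added to the search after that window had been read. Mki67, Top2a and Cdk1 are shown because they hold both motifs, Bub1 because it had the largest difference of the 10 genes, and Cdkn1a for contrast.
Mki67, chr7:135716380-135716629, minus strand: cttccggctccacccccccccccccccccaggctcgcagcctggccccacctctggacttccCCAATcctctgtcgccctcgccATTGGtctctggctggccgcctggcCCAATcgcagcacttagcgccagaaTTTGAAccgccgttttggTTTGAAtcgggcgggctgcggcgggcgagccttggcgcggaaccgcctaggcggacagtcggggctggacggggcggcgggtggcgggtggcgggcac
Top2a, chr11:99024190-99024439, minus strand: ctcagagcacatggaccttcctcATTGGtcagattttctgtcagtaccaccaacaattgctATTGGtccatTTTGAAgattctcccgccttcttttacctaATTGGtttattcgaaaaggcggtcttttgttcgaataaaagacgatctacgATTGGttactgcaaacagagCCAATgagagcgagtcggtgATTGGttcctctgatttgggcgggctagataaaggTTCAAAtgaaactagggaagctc
Cdk1, chr10:69352913-69353162, minus strand: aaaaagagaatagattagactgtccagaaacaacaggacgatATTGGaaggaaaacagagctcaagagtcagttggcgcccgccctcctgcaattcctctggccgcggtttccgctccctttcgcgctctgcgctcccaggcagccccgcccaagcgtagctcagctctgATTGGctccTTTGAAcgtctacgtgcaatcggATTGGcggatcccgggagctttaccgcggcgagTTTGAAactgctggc
Bub1, chr2:127831860-127832109, minus strand: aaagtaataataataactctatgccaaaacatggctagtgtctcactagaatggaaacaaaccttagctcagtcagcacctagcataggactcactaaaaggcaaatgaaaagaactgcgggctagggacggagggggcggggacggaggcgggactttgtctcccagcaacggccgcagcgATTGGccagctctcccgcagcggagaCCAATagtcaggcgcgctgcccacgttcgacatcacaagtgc
Cdkn1a, chr17:29090729-29090978, plus strand: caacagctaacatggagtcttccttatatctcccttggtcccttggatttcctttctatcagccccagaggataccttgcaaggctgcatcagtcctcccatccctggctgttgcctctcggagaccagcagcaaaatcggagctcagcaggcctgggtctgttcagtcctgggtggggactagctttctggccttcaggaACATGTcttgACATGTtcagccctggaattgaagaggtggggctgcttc
TTTGAA occurred in 3 of the 6 mitotic windows, with 2 matches in each of Mki67, Top2a and Cdk1, and in 15.99% of the 32851 mouse windows of this length, while 1.81% of all windows held at least 2. CCAAT occurred in 5 of the 6, where 33.8% of all windows held it. Top2a had 6 CCAAT matches, Mki67 and Cdk1 had 3, Ccnb1 and Bub1 had 2, and Birc5 had none. In Cdk1 the matches nearest the start were TTTGAA at position -15 and CCAAT at -48, and in Top2a they were TTTGAA at -23 and CCAAT at -58, with -1 as the base before the start. Neither E2F-type motif was present in the mitotic windows in these exact letters, and they occurred in 0.895% and 0.417% of all windows. The Cdkn1a window held ACATGT at -49 and -39, and 0.247% of all windows held at least 2 copies. It held neither TTTGAA nor CCAAT. That letter group was picked from this window, so the share describes it and tests nothing, and the other RefSeq window of Cdkn1a, chr17:29093519-29093768, held none of the motifs searched. These matches describe the letters and are not shown to be sites that a factor uses.

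In GRCm38, Mki67 (ENSMUSG00000031004) lies at chr7:135689784-135716361, Top2a (ENSMUSG00000020914) lies at chr11:98992943-99024189 and Ccnb1 (ENSMUSG00000041431) lies at chr13:100778650-100786570, all on the minus strand. On the same strand Ccna2 (ENSMUSG00000027715) lies at chr3:36564865-36572150, Cdk1 (ENSMUSG00000019942) lies at chr10:69335146-69352938, Bub1 (ENSMUSG00000027379) lies at chr2:127801122-127831865 and Ccnd1 (ENSMUSG00000070348) lies at chr7:144929931-144939925. On the plus strand Birc5 (ENSMUSG00000017716) lies at chr11:117849251-117855743, Aurkb (ENSMUSG00000020897) lies at chr11:69045647-69051664 and Cdkn1a (ENSMUSG00000023067) lies at chr17:29090976-29100727. Their levels are sums over all annotated exons, so that isoforms were not separated.

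The libraries differed in depth and in what else they contained. Reads in genes ranged from 4320819 to 12072443, and 3 counts, taken as the floor, corresponded to 0.262 to 0.656 CPM, the unit of all levels here, which is a count relative to the TMM-scaled total of its library. The 3 Des-/- swim libraries were the shallowest, at 4320819 to 6521963 reads. Of uniquely aligned reads, 34.0% to 39.3% lay outside genes in Des+/+ non-swim and 45.9% to 50.4% in Des+/+ swim libraries. In Des-/- the shares were 34.2% to 52.3% without and 57.2% to 64.5% after swimming. These shares differed without overlap with swimming in each genotype, and their part in the results was not tested. Intervals and floors cover counting error only. The targeted gene matched its labels: Des was between 973 and 3647 CPM in Des+/+ libraries and between 50.3 and 101 CPM in Des-/- libraries. All 12 cardiomyocyte markers were detected, but their summed level spanned a wide range, from 116857 CPM in Des+/+ non-swim replicate 2 to 7429 CPM in Des-/- non-swim replicate 3. The latter library also had the highest sum of 14 macrophage and monocyte markers, 4746 CPM against 243 to 1529 CPM in the other 11, and of 14 fibroblast markers, 45242 CPM against 5956 to 18931 CPM. These libraries stand apart from the others, and the main differences that rest on them are given with and without them. Correlations between genes were computed over all 12 libraries only. In bulk RNA, fewer cells of a type and less RNA per cell cannot be told apart.

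The mean level of each of the 8 mitotic genes was highest in Des-/- mice that had not swum. Their summed level was 86.3, 8.53 and 39.8 CPM in the Des+/+ non-swim libraries, 57.8, 52.0 and 38.0 CPM in the Des+/+ swim libraries, 85.7, 243 and 447 CPM in the Des-/- non-swim libraries and 17.9, 57.3 and 119 CPM in the Des-/- swim libraries. Replicates 2 and 3 of the Des-/- non-swim group were above all other libraries, while replicate 1 of that group lay just below replicate 1 of its Des+/+ counterpart. Des-/- non-swim replicate 3 was the highest of the 12 libraries for 8 of the 8 genes, and Des+/+ non-swim replicate 2 was the lowest for 8 of 8. Des-/- non-swim replicate 2 ranked second for 7 of the 8, and Des-/- swim replicate 3 for the other one, Birc5. By group mean the order was Des-/- non-swim (259 ± 181 CPM), Des-/- swim (64.7 ± 51.0 CPM), Des+/+ swim (49.2 ± 10.2 CPM) and Des+/+ non-swim (44.9 ± 39.1 CPM; SD, n = 3 each). The libraries of the last 3 groups overlapped in each pair, and the mean of Des-/- swim exceeded that of Des+/+ swim by more than the SD of the latter and by less than its own.

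**Figure D1:**
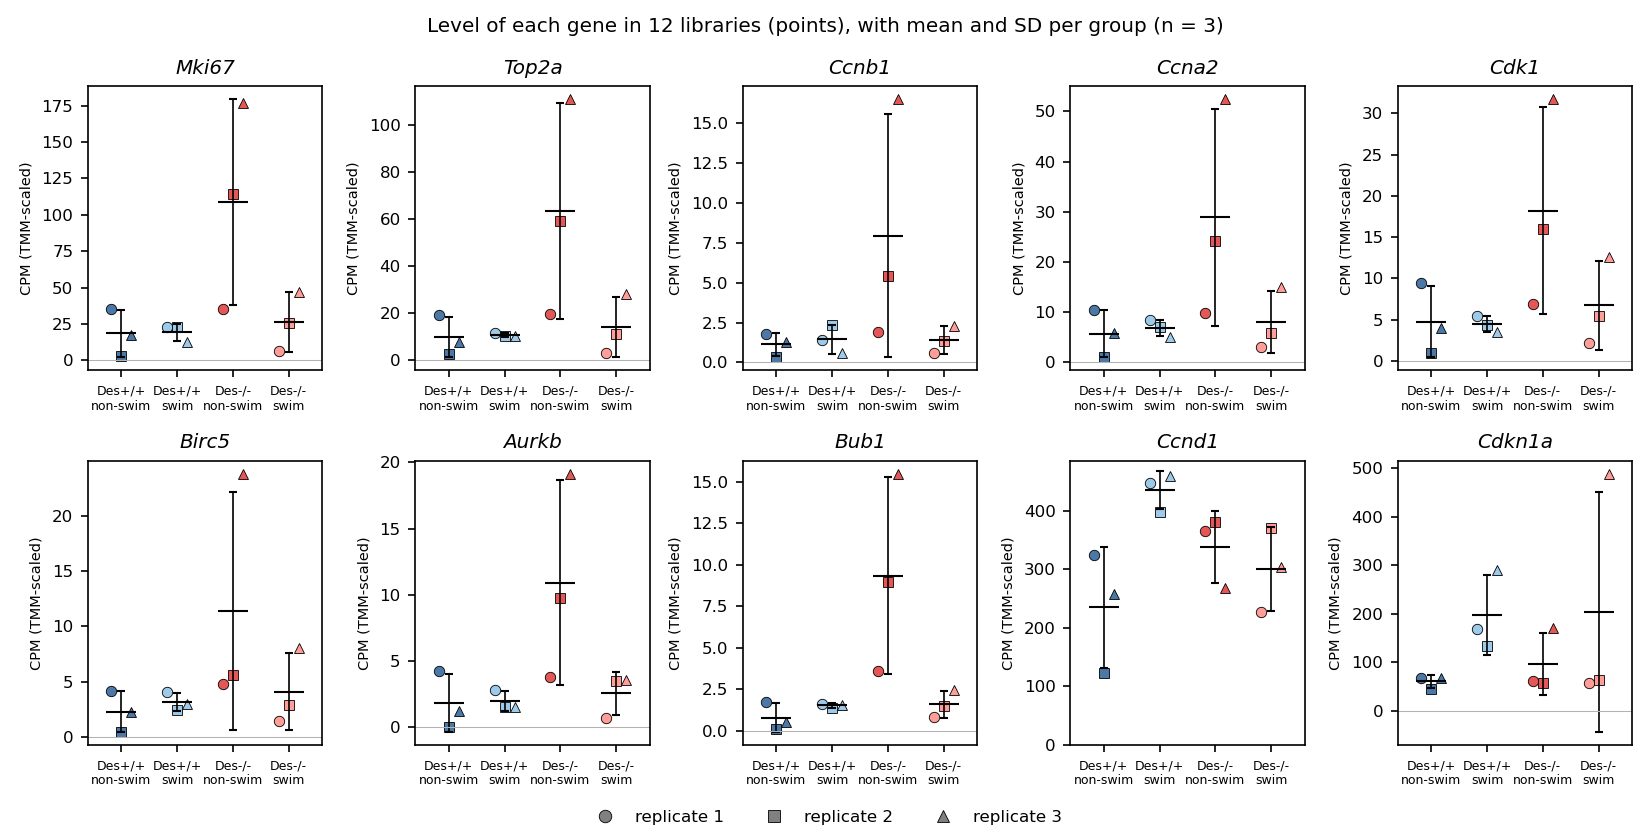
Level of each gene in CPM (vertical axes, linear and including 0) in the 12 libraries of 4 groups. Points are libraries, with circles, squares and triangles for replicates 1, 2 and 3, and bars give the mean and SD of 3; for the 8 mitotic genes the red triangle, Des-/- non-swim replicate 3, is the highest point of each panel.

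Mki67 encodes Ki-67, the protein most used to mark cycling cells, which coats mitotic chromosomes. It was at 35.5, 2.92 and 17.1 CPM in Des+/+ non-swim, 22.6, 22.6 and 12.4 CPM in Des+/+ swim, 35.3, 114 and 177 CPM in Des-/- non-swim and 6.11, 25.6 and 47.0 CPM in Des-/- swim libraries. The replicate 1 libraries of the non-swim genotypes were within 1 CPM of each other, with the Des+/+ library the higher, so these groups overlapped. Top2a encodes DNA topoisomerase II alpha, which untangles sister chromosomes. Its level was 19.1, 2.69 and 7.67 CPM in Des+/+ non-swim, 11.5, 10.3 and 10.2 CPM in Des+/+ swim, 19.5, 59.1 and 111 CPM in Des-/- non-swim and 2.99, 11.2 and 28.2 CPM in Des-/- swim libraries. The non-swim genotypes did not overlap, though the lowest Des-/- library and the highest Des+/+ library were within 1 CPM of each other.

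Cdk1 is the kinase that starts mitosis, and cyclins A2 and B1, from Ccna2 and Ccnb1, are its partners. Cdk1 was at 9.43, 0.935 and 3.97 CPM in Des+/+ non-swim libraries against 6.91, 15.97 and 31.7 CPM in Des-/- non-swim libraries, and Ccna2 at 10.4, 1.05 and 5.77 CPM against 9.89, 24.2 and 52.5 CPM. Both genes overlapped between these groups because replicate 1 was lower in Des-/- than in Des+/+. Ccnb1 was rarer, with 1.77, 0.351 and 1.26 CPM against 1.91, 5.44 and 16.5 CPM, and did not overlap. After swimming, Ccnb1 lay between 0.569 and 2.35 CPM in both genotypes, Cdk1 lay between 3.56 and 5.43 CPM in Des+/+ and at 2.13, 5.47 and 12.6 CPM in Des-/- libraries, and the group means of Ccna2 were 6.86 ± 1.64 and 7.99 ± 6.17 CPM (SD, n = 3 each). An annotated processed pseudogene, Ccnb1-ps, shares sequence with Ccnb1, so that its reads are less certain. Ccna2 overlaps Exosc9 on the other strand over 510 exonic bases. Reads were counted by strand, but the labels name a library kit that does not mark strand where the methods name a directional one, so that Ccna2 reads may not be separated from those of Exosc9.

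Aurkb and Birc5 encode Aurora B kinase and survivin, 2 subunits of the chromosomal passenger complex that corrects the attachment of chromosomes to the spindle, and Bub1 is a kinase of the spindle checkpoint. Aurkb was at 4.24, 0 and 1.26 CPM in Des+/+ non-swim and 3.83, 9.74 and 19.2 CPM in Des-/- non-swim libraries. The count of 0 in Des+/+ non-swim replicate 2 allows up to 0.350 CPM. Birc5 was at 4.13, 0.467 and 2.26 CPM against 4.78, 5.55 and 23.8 CPM, with no overlap. Bub1 separated the non-swim groups most, with 1.77, 0.117 and 0.541 CPM against 3.61, 8.95 and 15.5 CPM, where the lowest value, 0.117 CPM, was a single read. After swimming Aurkb was at 2.83, 1.5 and 1.57 CPM in Des+/+ and 0.711, 3.50 and 3.54 CPM in Des-/- libraries. Birc5 was then at 4.02, 2.46 and 2.99 CPM and at 1.42, 2.84 and 8.01 CPM, and for both genes the genotypes overlapped. In Des-/- libraries after swimming Bub1 was at 0.853, 1.53 and 2.46 CPM, below each of the 3 libraries without swimming, and Des+/+ swim libraries lay between 1.39 and 1.65 CPM.

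The first comparison asked how the genotypes differed in mice that had not swum. Of the 10 genes, 5 rose in Des-/- libraries with edgeR's quasi-likelihood test and Benjamini-Hochberg adjustment over all genes tested, and none fell, where 32% of the 13158 genes were called and 14% were called higher. Bub1 rose most, by 3.53 on the log2 scale (SE 0.74, edgeR adjusted p = 0.00499), or 11.5-fold. Ccnb1 rose by 2.81 (SE 0.83, adjusted p = 0.0238, edgeR), Top2a by 2.69 (SE 0.81, adjusted p = 0.0266, edgeR), Mki67 by 2.56 (SE 0.84, adjusted p = 0.0371, edgeR) and Ccna2 by 2.33 (SE 0.77, adjusted p = 0.0379, edgeR). The other 3 mitotic genes had differences of like size that missed the threshold: 2.58 for Aurkb (SE 0.96, edgeR adjusted p = 0.0606), 2.32 for Birc5 (SE 0.82, edgeR adjusted p just over the threshold at 0.05002) and 1.93 for Cdk1 (SE 0.77, edgeR adjusted p = 0.0761). The median over the 8 mitotic genes was a log2 difference of 2.57, against 0.04 over all genes tested. The libraries of the groups did not overlap for 4 of the 10 genes (Top2a, Ccnb1, Birc5 and Bub1), and for 47.9% of all genes tested.

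How many genes were called depended on single libraries. Without Des+/+ non-swim replicate 2, without Des+/+ non-swim replicate 3, or without Des-/- non-swim replicate 3, only 1 of the 10 was called, Bub1 each time, with log2 differences of 3.03, 3.29 and 2.95, where 19.5%, 21.9% and 21.1% of all genes were called. Without replicate 1 of the Des+/+ or the Des-/- non-swim group, 8 were called, where 25.5% and 27.6% of all genes were, and without Des+/+ swim replicate 1, 3 were called, where 29% were. Without Des-/- non-swim replicate 3 the log2 differences of the other 7 mitotic genes lay between 1.18 and 2.01. With both libraries that stand apart left out, Bub1 was again the only gene called, at 2.46 (SE 0.67, edgeR adjusted p = 0.0375), where 13.8% of all genes were called, so that 1 of 10 was no more than the general share. The other 7 mitotic genes then had log2 differences between 0.70 and 1.56. DESeq2 called all 8 mitotic genes, where 32.6% of all genes with an adjusted p were called, and a model fitted to the 6 non-swim libraries alone called 2, Top2a and Bub1, where 26.5% were.

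**Figure D2:**
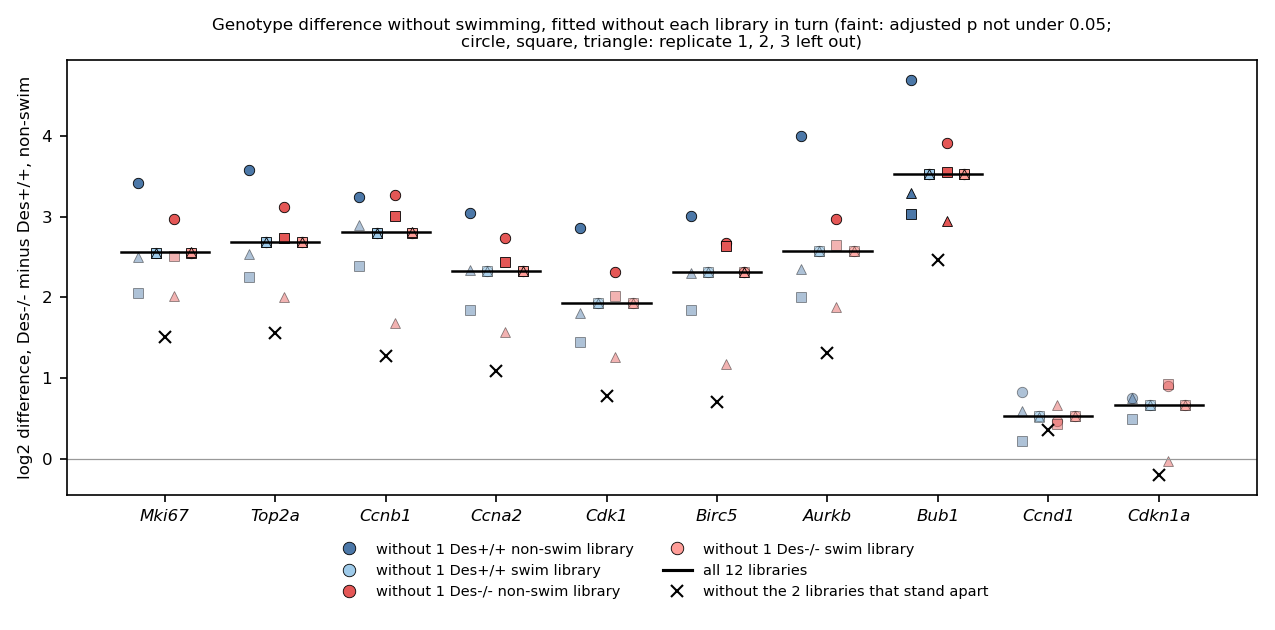
The log2 difference between Des-/- and Des+/+ non-swim libraries (vertical axis) for each gene (horizontal axis), with all 12 libraries (lines), without each library in turn (points) and without both libraries that stand apart (crosses). Points are faint where the edgeR adjusted p was not under 0.05; Bub1 is solid in each of the 12 fits, and among the fits without a single library the differences of the other mitotic genes are smallest without Des-/- non-swim replicate 3, and the crosses lie lower still.

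After swimming none of the 10 genes was called between the genotypes (edgeR; 0 had an unadjusted p under 0.05, and DESeq2 also called 0), where 10.6% of all genes tested were. Of all 13158 genes, 4009 had an unadjusted p under 0.05 in edgeR, and DESeq2 called 15.9% of those with an adjusted p. Log2 differences of the mitotic genes lay between -0.08 for Ccnb1 and 0.59 for Cdk1, with edgeR adjusted p from 0.640 to 0.959 and SEs from 0.74 to 1.00, and a missed threshold with errors of this size does not show that the genotypes were alike. Ccnd1 was the only member whose libraries did not overlap, and it was lower in Des-/-, where 35.9% of all genes tested did not overlap.

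Swimming itself was compared within each genotype, and each of these comparisons shares its non-swim libraries with the genotype comparison above. In Des+/+ mice none of the 10 genes was called (edgeR, 2 with an unadjusted p under 0.05, 0 called by DESeq2), where 0.0912% of all genes tested were. Of all 13158 genes, 2697 had an unadjusted p under 0.05 in edgeR, and DESeq2 called 6.54% of those with an adjusted p. The 8 mitotic genes had log2 differences from -0.09 to 0.93. In Des-/- mice none was called with edgeR either, where 0.0228% of all genes tested were and 2201 of the 13158 had an unadjusted p under 0.05. All 8 mitotic genes were lower after swimming, by log2 values between -1.43 for Cdk1 and -2.53 for Bub1, and 5 of them had an unadjusted p under 0.05. Their adjusted p ranged from 0.192 to 0.367 (edgeR), and DESeq2 called 1, Bub1, at -2.53 (DESeq2 adjusted p = 0.0273), where it called 2.45% of all genes. Aurkb and Bub1 did not overlap between Des-/- swim and non-swim libraries, where 19.4% of all genes tested did not. With both libraries that stand apart left out, the log2 differences of the 8 genes after swimming in Des-/- mice lay between -0.33 and -1.94.

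The difference between the 2 swimming effects, the interaction, was tested on its own. None of the 10 genes was called, and 0% of all genes tested were (edgeR; 3 of the 10 had an unadjusted p under 0.05, and DESeq2 called 0 of the 5 for which it gave an adjusted p, Bub1 not among them). Of all 13158 genes, 2148 had an unadjusted p under 0.05 in edgeR, and DESeq2 called 2.54% of those with an adjusted p. The log2 interaction ranged from -1.34 for Cdk1 to -3.46 for Bub1 among the mitotic genes (edgeR adjusted p = 0.199 for Bub1). Without Des-/- non-swim replicate 3 it was -0.67 for Cdk1, -0.80 for Birc5 and -2.88 for Bub1, and without both libraries that stand apart it was -0.19, -0.33 and -2.40. It was therefore not shown that swimming acted differently on these genes in the 2 genotypes.

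**Figure D3:**
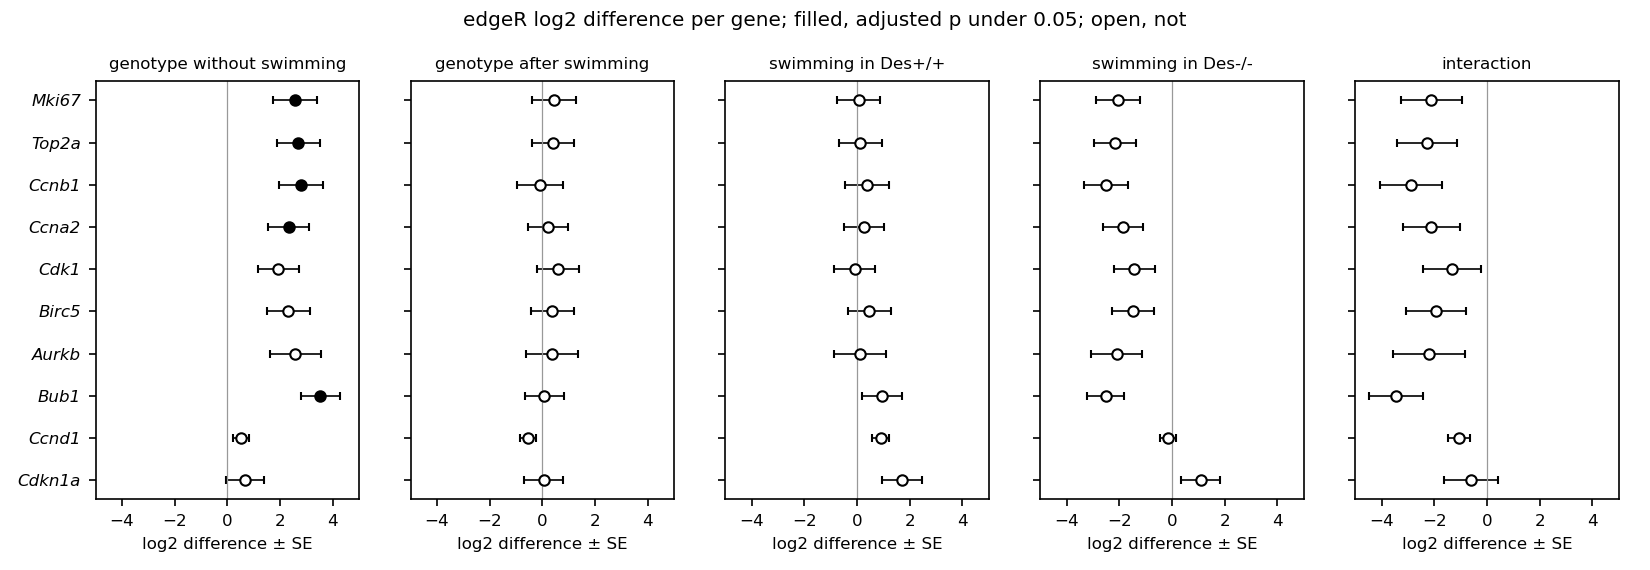
The log2 difference of each gene with its SE (horizontal axes) in the 5 comparisons, from edgeR. Filled points passed an adjusted p of 0.05 and open points did not; only genotype without swimming has filled points, for Mki67, Top2a, Ccnb1, Ccna2 and Bub1, and the mitotic genes sit to the left of 0 for swimming in Des-/-.

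Ccnd1 and Cdkn1a followed other patterns. Per kilobase of exon they were also the most abundant members, with mean levels of 69.6 CPM per kb for Ccnd1 and 39.3 CPM per kb for Cdkn1a, against 4.29 for Mki67, the highest mitotic gene on this scale, and 0.707 for Ccnb1, the lowest. Ccnd1 was at 325, 122 and 258 CPM in Des+/+ non-swim, 448, 398 and 460 CPM in Des+/+ swim, 365, 382 and 269 CPM in Des-/- non-swim and 227, 371 and 305 CPM in Des-/- swim libraries. The Des+/+ swim libraries were above all others. The log2 difference with swimming in Des+/+ mice was 0.89 (SE 0.31, unadjusted p = 0.0139, edgeR adjusted p = 0.151), which was not called, and in Des-/- mice it was -0.17 (SE 0.30, edgeR adjusted p = 0.803). Between genotypes the log2 difference was 0.53 without and -0.53 after swimming (edgeR adjusted p = 0.208 and 0.258). Without Des+/+ non-swim replicate 2, where Ccnd1 was lowest, the difference was 0.21 between genotypes without swimming and 0.58 with swimming in Des+/+ mice. Ccnd1 shares 1100 exonic bases with LTO1 on the other strand, with the same limit as for Ccna2.

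Cdkn1a was at 68.0, 45.7 and 68.3 CPM in Des+/+ non-swim, 169, 133 and 290 CPM in Des+/+ swim, 60.7, 57.8 and 170 CPM in Des-/- non-swim and 58.3, 63.9 and 489 CPM in Des-/- swim libraries. In Des+/+ mice all 3 swim libraries exceeded all 3 non-swim libraries, and of the 10 genes Cdkn1a and Ccnd1 were the ones without overlap there, where 31.3% of all genes tested had none. The log2 difference was 1.70 (SE 0.75, unadjusted p = 0.0426, edgeR adjusted p = 0.231), and in a model of those 6 libraries alone it was called at 1.77 (SE 0.30, edgeR adjusted p = 0.0314), where 2.25% of all genes were. In both Des-/- groups 1 library, replicate 3, was far above the other 2, which were within the range of the Des+/+ non-swim group. The log2 difference with swimming in Des-/- mice was 1.09 (SE 0.73, edgeR adjusted p = 0.461), and without Des-/- swim replicate 3 it was -0.66. Cdkn1a had its highest value in Des-/- swim replicate 3, a library with 119 CPM of mitotic transcripts and 1529 CPM of macrophage and monocyte markers.

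Other genes of the cell cycle were read from written lists that hold none of the 10 members. Without swimming, 36 of the 48 genes of G2 and mitosis rose in Des-/- libraries and none fell, with a median log2 difference of 2.17. Of 34 genes of S phase and DNA replication 21 rose, with a median of 1.27, and 1 fell, where 14% of all genes were called higher. The S phase genes with the smallest p were Mcm3 (1.24), Mcm7 (1.01), both subunits of the replicative helicase, and E2f1 (2.77), a transcription factor of S phase entry, with edgeR adjusted p of 0.00108, 0.00204 and 0.00242. The gene that fell was Gmnn, which encodes geminin, an inhibitor of replication licensing, by 1.17 on the log2 scale (edgeR adjusted p = 0.00789). In the G2 and mitosis list, Smc4 (1.16), a condensin subunit, Cdc25b (1.18), a phosphatase that activates Cdk1, and Incenp (1.71), the scaffold of the chromosomal passenger complex, led by p, with edgeR adjusted p of 0.00164, 0.00437 and 0.00562.

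These counts, too, moved with single libraries. Without both libraries that stand apart, 2 of the G2 and mitosis genes were called, Smc4 and Ncapd2, with a list median of 1.08, and 6 of the S phase genes, with a median of 0.86. These are 4.17% and 17.6% of the lists, against 13.8% of all genes in that fit. Leaving out 1 library at a time, 11 to 44 of the G2 and mitosis genes and 11 to 26 of the S phase genes were called. Of all genes, 19.5% to 34.4% were called over these fits. The fewest mitosis genes were called without Des+/+ non-swim replicate 2, where 19.5% of all genes were. Without Des-/- non-swim replicate 3, 13 rose and 1 fell, where 21.1% of all genes were called. After swimming, 1 gene of G2 and mitosis was called between genotypes, Smc4, at 1.08 (SE 0.19, edgeR adjusted p = 0.0129), and 0 of the S phase genes (edgeR; 3 with an unadjusted p under 0.05, 0 called by DESeq2). Of all genes, 10.6% were called by edgeR and 15.9% by DESeq2 in this comparison. Plk1, the mitotic kinase with the next smallest p, had a log2 difference of 1.35 (edgeR adjusted p = 0.119). Smc4 was at 139.7 ± 11.7 CPM in Des-/- non-swim and 144.8 ± 22.1 CPM in Des-/- swim libraries, against 62.7 ± 15.5 and 68.4 ± 9.89 CPM in the Des+/+ groups (SD, n = 3 each).

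Genes that act before S phase or restrain the cycle moved in both directions. Of 17 G1 cyclins, kinases and pocket proteins, 4 rose and 2 fell without swimming, with a median of 0.26, a share called of 35.3% that is near the 32% of all genes. Cdk4 (0.57) and Cdk6 (1.03), the kinases that cyclin D1 activates, rose, and E2f6, a repressor of the E2F family, fell by 1.31 on the log2 scale (edgeR adjusted p = 0.00568, 0.0106 and 0.00234). The others called were Cdk2 (0.42), Myc (2.64) and Ccnh (-0.68), which are named because the count was small. Among 5 tested inhibitors of cyclin-dependent kinases, 1 rose, Cdkn2c, which encodes p18, by 1.03 (edgeR adjusted p = 0.00614), while Cdkn1b was at -0.32 and Cdkn2d at 0.08, neither called. Cdkn2c was also called with both libraries that stand apart left out. After swimming 0 genes of these 2 lists were called between genotypes with edgeR, where 2 of each list had an unadjusted p under 0.05 and DESeq2 called 1 of the first list and 0 of the second. Of all genes, edgeR called 10.6% and DESeq2 15.9%.

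The 21 p53 target genes, which hold other well-known targets beside Cdkn1a, included 3 that rose and 5 that fell without swimming, with a median of 0.12. The share called, 38.1%, was near the 32% of all genes. Phlda3, a repressor of Akt, rose by 1.75, Perp, a membrane protein of desmosomes, fell by 1.85, and Ccng1, cyclin G1, fell by 2.04 on the log2 scale (edgeR adjusted p = 0.000774, 0.000774 and 0.000903). Bax (0.72) and Btg2 (0.89) rose as well, and Sesn1 (-1.33), Aen (-0.70) and Ei24 (-0.28) fell, all named because the counts were small. After swimming, 2 were higher and 5 lower in Des-/- libraries, 33.3% against 10.6% of all genes, with Perp at -1.42 and Phlda3 at 1.00 (edgeR adjusted p = 0.00887 and 0.0160). With both libraries that stand apart left out, 4 were called between the non-swim genotypes, Phlda3, Perp, Ccng1 and Sesn1, where 13.8% of all genes were. Between the swim genotypes 7 were then called, where 16.3% of all genes were. Of the 125 tested genes of the 5 lists, 0 were called for swimming in Des+/+ mice (edgeR; 13 with an unadjusted p under 0.05, 3 called by DESeq2) and 0 in Des-/- mice (edgeR; 63 with an unadjusted p under 0.05, 6 called by DESeq2). Of these 63 genes, 32 belonged to the 48 of the G2 and mitosis list, whose median log2 difference with swimming in Des-/- mice was -1.65. For swimming in Des+/+ mice, 2697 of all 13158 genes had an unadjusted p under 0.05 in edgeR, and 2201 did in Des-/- mice. DESeq2 called 6.54% and 2.45% of all genes, and edgeR 0.0912% and 0.0228%.

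**Figure D4:**
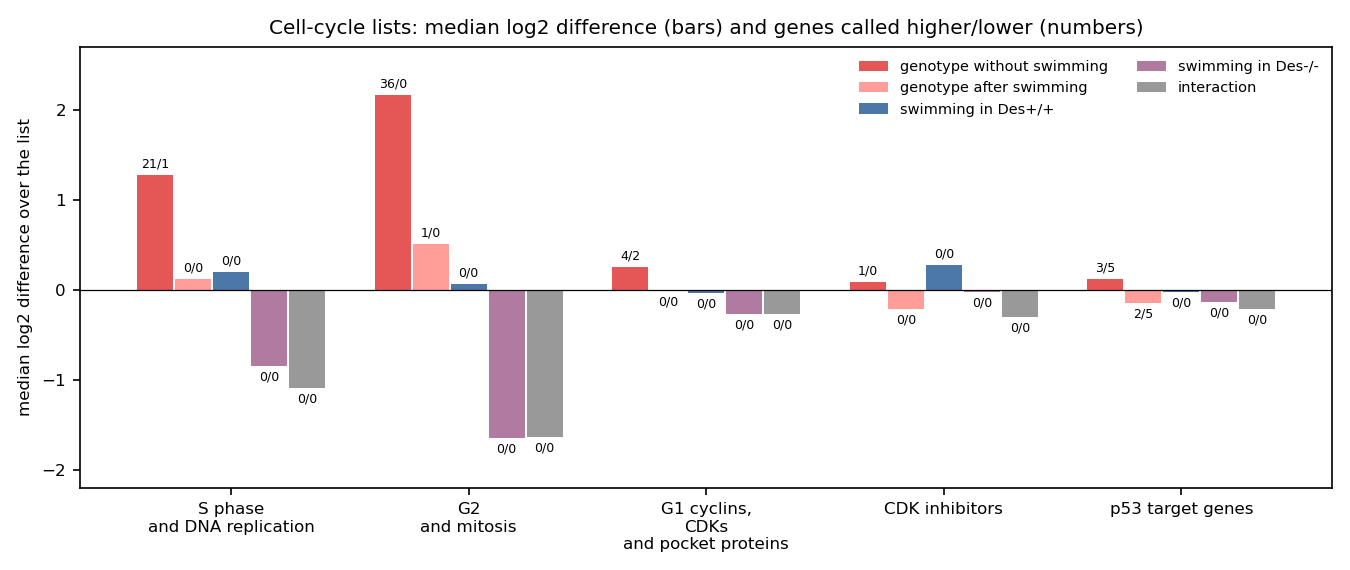
Median log2 difference over the tested genes of each cell-cycle list (bars, vertical axis) in the 5 comparisons (colours). Numbers above or below the bars give the genes called higher and lower with edgeR; the tallest bars are G2 and mitosis at 2.17 and S phase at 1.27 for genotype without swimming.

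Markers of other cell types moved in the same comparison as the mitotic genes. Without swimming, 11 of 14 macrophage and monocyte markers and 12 of 14 fibroblast markers rose in Des-/- libraries, with median log2 differences of 2.94 and 1.52, and 12 of 12 cardiomyocyte markers fell, with a median of -2.16. Of all genes tested in this comparison, 32% were called and 14% were called higher. The summed macrophage and monocyte level was 463 to 4746 CPM in Des-/- non-swim and 258 to 1529 CPM in Des-/- swim libraries, and the summed cardiomyocyte level 7429 to 34803 CPM in Des-/- non-swim and 78458 to 116857 CPM in Des+/+ non-swim libraries. Of these markers none was at 0 throughout, and of 10 neutrophil markers 1 was. Of the 19 genes of the response to cell isolation 13 rose, and of 6 erythroid genes tested 5 rose. Without Des-/- non-swim replicate 3, 1 macrophage and monocyte marker was called (list median 0.95) and 6 fibroblast markers (1.44), and 11 cardiomyocyte markers (-1.79). In that fit 21.1% of all genes were called. Without both libraries that stand apart, 1 macrophage and monocyte marker was called (1.05), 4 fibroblast markers (1.37), 9 cardiomyocyte markers (-1.65), 6 genes of the response to cell isolation and 1 erythroid gene, where 13.8% of all genes were. Of the lymphocyte markers 3 of 6 tested rose and of the neutrophil markers 1 of 3, all at low counts. None of 14 endothelial markers was called (edgeR, 0 with an unadjusted p under 0.05, 0 called by DESeq2), and 1 of 10 pericyte and smooth muscle markers fell. Des-/- non-swim replicate 2 combined the second highest mitotic sum, 243 CPM, with 463 CPM of macrophage and monocyte markers, against 243 to 376 CPM in the Des+/+ libraries. Its fibroblast markers summed to 14195 CPM, against 5956 to 8119 CPM in the Des+/+ libraries. Its cardiomyocyte markers summed to 34803 CPM, under the Des+/+ non-swim range. Per 1000 counts of the macrophage and monocyte list there were 114, 525 and 94.2 mitotic counts in the Des-/- non-swim libraries and 229, 30.6 and 164 in the Des+/+ non-swim libraries. The groups overlapped on this scale, as their unscaled mitotic sums already did (85.7 to 447 against 8.53 to 86.3 CPM). Per 1000 fibroblast counts the values were 4.53, 17.1 and 9.88 against 11.7, 1.25 and 4.90, again overlapping. With 3 libraries against 3, no exact permutation test of such sums can go below p = 0.1. The part of these cells in the mitotic result was not tested.

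**Figure D5:**
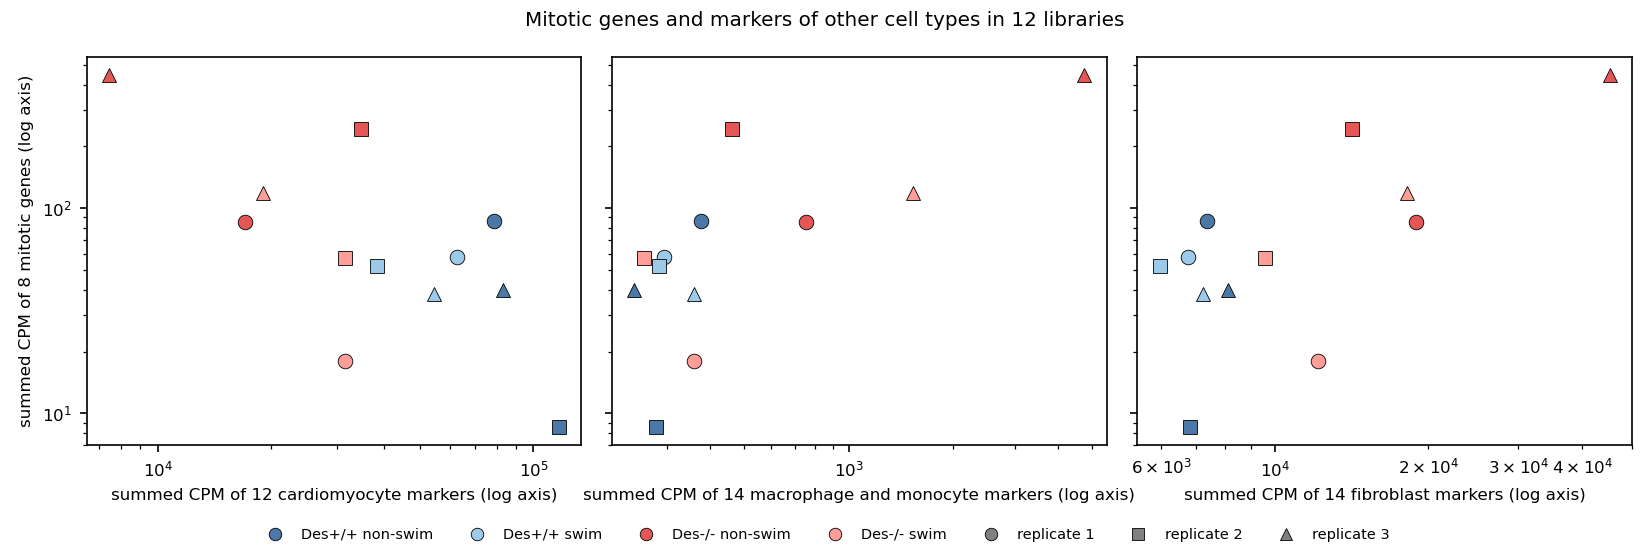
Summed CPM of the 8 mitotic genes (vertical axis, log scale) against the summed CPM of cardiomyocyte, macrophage and monocyte, and fibroblast markers (horizontal axes, log scale) in the 12 libraries. Des-/- non-swim replicate 3 (red triangle) is at the extreme of every panel. Des-/- non-swim replicate 2 (red square) has 243 CPM of mitotic transcripts, with 463 CPM of macrophage and monocyte, 14195 CPM of fibroblast and 34803 CPM of cardiomyocyte markers.

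The share of each mitotic gene in their summed counts varied between libraries. Mki67 made up between 32.6% and 47.0% of the summed mitotic counts in the 12 libraries, and Top2a between 16.7% and 31.5%. In the library with the fewest counts, Des+/+ non-swim replicate 2 with 73 in all, Mki67 was 34.2% (95% Wilson interval 24.4 to 45.7), and in the one with the most, Des-/- non-swim replicate 3 with 5110, it was 39.5% (38.2 to 40.9). Some shares differed beyond counting error: in Des-/- non-swim replicate 2 Mki67 was 47.0% (44.9 to 49.1) and Birc5 2.28% (1.73 to 3.00), where Birc5 was 5.32% (4.74 to 5.97) in replicate 3. Over the 12 libraries, Pearson's r of log2 CPM between pairs of mitotic genes lay between 0.880 and 0.988 for the 28 pairs, with a median of 0.944, and between 0.210 and 0.573 for the 17 pairs that include Ccnd1 or Cdkn1a. These are descriptions over libraries that share depth and cell mix. They include both libraries that stand apart, and no value without them was computed.

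The genes outside the lists whose pattern was most like the mean of the mitotic genes, among 11937 compared over the 12 libraries, were Cep55 (r = 0.979), Ckap2l (0.975), Iqgap3 (0.974), Mxd3 (0.970) and Pimreg (0.969). Cep55 had mean levels of 2.34 CPM in Des+/+ non-swim, 2.17 CPM in Des+/+ swim, 9.49 CPM in Des-/- non-swim and 3.05 CPM in Des-/- swim libraries. Closest to Ccnd1 were Apln, which encodes apelin (0.914), Chst1 (0.914), Ywhah (0.894), Usp6nl (0.891) and Sez6l2 (0.889). Closest to Cdkn1a were Inhbb, an inhibin and activin subunit (0.967), Pdlim7 (0.965), Tmem252 (0.957), Zbtb21 (0.947) and Il4ra (0.936). Cdkn1a was at 489 CPM in Des-/- swim replicate 3 against 58.3 and 63.9 CPM in the rest of its group. No correlation was computed without that library. Inhbb averaged 10.4 CPM in Des+/+ non-swim and 66.1 CPM in Des+/+ swim libraries, and 20.02 and 47.4 CPM in the Des-/- groups.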

How the data were processed

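Poly-A RNA of 12 libraries was sequenced, and samples were grouped by genotype and swimming from their titles. The deposited values are raw counts of reads per gene. Per the labels and the study's methods, the authors aligned single-end reads to GRCm38 with HISAT2 2.2.1, used SAMtools 1.13 and counted with HTSeq-count in reverse-strand mode. Positions, exon lengths and overlaps came from GENCODE M21.

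Testing used edgeR 4.0.16 under R 4.3.3, with filterByExpr, TMM scaling, 1 quasi-likelihood fit of 4 group means to the 12 libraries (8 residual degrees of freedom, common biological coefficient of variation 0.271) and Benjamini-Hochberg adjustment over 13158 genes, with a call at an adjusted p under 0.05. The procedure was tested on simulated data. P-values measure the spread between pools of cells. Alternatives were other scalings and filters, DESeq2 1.42.0, fits of 6 libraries, a replicate block and each library left out; leaving out both libraries that stand apart was chosen after seeing the data.

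Replicate numbers were checked for pairing by the correlation of deviations from group means over genes. For swimming in Des-/- every pair exceeded 0.1 (0.365, 0.316 and 0.602), and for the other comparisons at least 1 pair did not. Replicate 3 held the most macrophage and monocyte markers in both Des-/- groups (4746 and 1529 CPM). A shared cell mix and a true pairing cannot be told apart by such correlations, and the titles and methods name no pairing.

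All 10 members are named. From each written list, the 3 genes with the smallest p without swimming, and 2 in other comparisons with a called gene, are named, and others only where counts were small. The members and the lists were chosen with earlier results of these data known.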

Additional observations from a re-analysis of the deposited data

How the results depend on the processing

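The 5 members called for genotype without swimming became 8 with DESeq2, 2 in a fit of only the 6 libraries compared and 1 without both libraries that stand apart, and 1 to 8 over the fits that left out each library in turn. The other scalings gave 6, no filter 7, the stricter filter 6 and the replicate block 4 (Birc5, Top2a, Bub1 and Ccnb1). Of all genes with an adjusted p, 32% were called in the reported fit, 32.6% with DESeq2, 26.5% in the fit of 6 libraries, 13.8% without both libraries and 19.5% to 34.4% over the fits without 1 library. With DESeq2 size factors 32.3% were called, with upper-quartile scaling 34.4%, with no filter 22.5%, with the stricter filter 33.8% and with the replicate block 31%. The cause was not tested. DESeq2 called 1 member for swimming in Des-/- and the fit of 6 libraries 1 for swimming in Des+/+, where 2.45% and 2.25% of all genes were called. With the replicate block no member was called in the other 4 comparisons, swimming in Des-/- included.

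The log2 changes that took the opposite sign under an alternative were all for comparisons in which that member was not called. For Cdkn1a, genotype without swimming became -0.20 and the interaction 0.24 without both libraries that stand apart. With the replicate block, genotype after swimming was -0.014 for Ccna2, -0.0057 for Bub1 and -0.44 for Cdkn1a, and swimming in Des+/+ was 0.0056 for Cdk1, and upper-quartile scaling gave 0.012 for Ccnb1 after swimming. Without both libraries that stand apart, swimming in Des+/+ was -0.43 for Mki67, -0.30 for Top2a, -0.016 for Ccnb1, -0.21 for Ccna2 and -0.45 for Aurkb. Over the fits without 1 library, genotype without swimming was -0.032 to 0.92 for Cdkn1a. Genotype after swimming was -0.33 to 0.92 for Mki67, -0.66 to 0.89 for Top2a, -0.71 to 0.46 for Ccnb1, -0.64 to 0.61 for Ccna2, -0.28 to 1.03 for Cdk1, -0.60 to 0.80 for Birc5, -0.40 to 0.39 for Bub1 and -1.69 to 0.49 for Cdkn1a. Swimming in Des+/+ was -0.44 to 0.92 for Mki67, -0.32 to 1.02 for Top2a, -0.16 to 0.82 for Ccnb1, -0.22 to 0.98 for Ccna2, -0.57 to 0.83 for Cdk1, -0.0073 to 1.17 for Birc5 and -0.46 to 1.54 for Aurkb. Swimming in Des-/- was -0.66 to 1.78 for Cdkn1a. The interaction was -2.36 to 0.073 for Cdkn1a. Of the 200 alternatives tried for the 40 mean levels, those with other scalings moved them by less than 1 SD. Those that left out 1 of the 3 libraries of a group could not move a mean that far, so they do not test the levels. The shallowest library had 4320819 reads in genes, and 3 of the 10 members were at or under 3 counts in Des+/+ non-swim replicate 2, which limits their changes.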
